A study of Mus musculus with 4 samples.

Results

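The genes described here encode 10 amino acid transporters of the plasma membrane, Slc7a5, Slc3a2, Slc7a1, Slc7a6, Slc7a7, Slc1a4, Slc1a5, Slc38a1, Slc38a2 and Slc6a9, out of 55359 mouse genes in the deposited table. They were taken by gene symbol, and each symbol had 1 row. RNA came from 4 libraries of cultured cells that the labels call female germ line stem cells of mouse ovary, grown in a serum medium with added glutamine, non-essential amino acids and pyruvate. The medium also held epidermal growth factor, basic fibroblast growth factor, leukemia inhibitory factor and the neurotrophic factor GDNF, and was the same for all 4 libraries. By its title and design the study compared cells treated with celastrol, a plant triterpenoid, with control cells at 12 h. The labels do not say which libraries were treated, nor whether they came from separate cultures, so values stand for single libraries, listed as 01, 02, 21 and 22. Conditions are not compared, and there is no replicate error.

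Cells take up amino acids through families of carriers with overlapping substrates. Slc3a2 encodes the heavy chain CD98hc, a glycoprotein that carries a light chain of the SLC7 family to the surface and is joined to it by a disulfide bond. The light chain decides the substrate: LAT1 (Slc7a5) exchanges large neutral amino acids such as leucine for intracellular glutamine, and y+LAT2 (Slc7a6) and y+LAT1 (Slc7a7) exchange cationic for neutral amino acids. CAT1 (Slc7a1) takes up arginine and lysine without a heavy chain. ASCT1 (Slc1a4) and ASCT2 (Slc1a5) exchange serine, alanine and, in the case of ASCT2, glutamine; SNAT1 (Slc38a1) and SNAT2 (Slc38a2) accumulate glutamine and alanine with sodium, and GlyT1 (Slc6a9) takes up glycine. Leucine that enters in this way signals to mTORC1 at the lysosome. Several of these genes are known targets of ATF4, the transcription factor induced by amino acid shortage, or of MYC.

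The libraries held 12339636, 13039541, 12388380 and 12850347 counts, and 11854 to 11978 genes per library reached 1 FPKM (fragments per kilobase of exonic length scaled to library depth). Over the 11874 genes averaging at least 1 FPKM, the pairs 01 with 02 and 21 with 22 were nearest to each other, with 3.47% of genes at least 0.5 apart on the log2(FPKM + 1) scale in each pair, against 8.78% to 9.2% in the other 4 pairs. The mean chi-square per gene of each pair, over genes with at least 20 counts in the pair, 3.03 to 19.6, was above the value of 1 that sampling noise gives, so no library was a second deposit of another. Of 9 genes that mark germ cells, 7 stayed under 1 FPKM throughout, among them Ddx4 with 0, 2, 0 and 0 counts and Dazl with 0, 4, 0 and 0. The other 2, which many cell types also express, were Ifitm3 at 273, 269, 278 and 272 FPKM and Kit at 58.9, 64.6, 101 and 100.2 FPKM. All 5 genes that mark granulosa cells were under 1 FPKM. Of 6 fibroblast markers 5 reached 1 FPKM in every library, each higher in 01 and 02 than in 21 and 22. Vim was at 341, 335, 296 and 306 FPKM and Pdgfra at 9.28, 10.46, 5.97 and 6.36 FPKM. Col1a1 was at 28.2, 29.5, 25.9 and 27.3 FPKM and Col1a2 at 14.6, 15.03, 13.8 and 13.15 FPKM. Thy1 was at 10.55, 9.65, 8.57 and 8.03 FPKM. Pdgfrb had the opposite order, at 0.53, 0.66, 0.84 and 0.88 FPKM. Of 10 mast cell and macrophage markers 4 reached 1 FPKM in every library. These were Cpa3 at 333, 325, 229 and 247 FPKM, Adgre1 at 218, 220.5, 97.7 and 96.2 FPKM, Cd68 at 25.3, 25.5, 11.7 and 13.2 FPKM and Ptprc at 10.2, 11.2, 10.4 and 11.3 FPKM. The mast cell genes Mcpt4, Tpsb2 and Fcer1a had no count, and Ms4a2, Hdc and the macrophage receptor gene Csf1r stayed under 1 FPKM. Summed over these 10 markers the level was 587, 582.5, 350 and 368 FPKM, high in 01 and 02. Most of that sum was Cpa3 and Adgre1. Ptprc did not follow it, and Kit was high in 21 and 22, so the sum is not a measure of a cell type. The part of such cells in the transporter values was not tested, and in bulk RNA fewer cells of a type and less RNA per cell cannot be told apart.

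The promoter windows of these genes show what sequence they share at their starts. RefSeq windows of 250 bases before to 50 after a start (GRCm38.p6) were at hand for 7 of the 10 genes, Slc3a2, Slc7a1, Slc7a6, Slc7a7, Slc1a4, Slc38a2 and Slc6a9, in 15 windows. The letters TGATGNAA, the core of the composite element that ATF4 binds with C/EBP proteins, were searched on both strands and stood in 3 of the 15 windows, those of Slc1a4 and Slc7a7, against 3.97% of all 32851 windows. The GC box GGGCGG, bound by SP1, stood in at least 1 window of all 7 genes and in 10 of 15 windows, against 35.7% of all windows. The E-box CACGTG, bound by MYC with MAX, stood in none of the 15 windows and in 7.15% of all. Windows of the same gene can overlap, so the same site can count more than once, as it does in Slc7a7 and Slc7a6. By gene, the composite letters stood in 2 of the 7. The shares of all windows are per window, and no share per gene was taken. A match is a string of letters and not a shown binding site. Printed 5′ to 3′ on the gene's strand are stretches with the composite letters in Slc7a7 (chr14:54418055-54418114, minus strand), whose window holds a further match across the start that is not shown, in Slc1a4 (chr11:20332708-20332737, minus strand, across the start) and, for comparison, in the light chain gene Slc7a11 (chr3:50443634-50443693, minus strand), which is not among the 10 genes and takes no part in the 15 windows. The GC box stretches of Slc3a2 (chr19:8713898-8713957, minus strand) and Slc38a2 (chr15:96699731-96699790, minus strand) follow, as genes whose windows hold the GC box and no composite letters. Capitals mark the matched letters on either strand.
Slc7a7: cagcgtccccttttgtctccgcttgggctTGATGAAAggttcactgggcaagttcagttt
Slc1a4: cctccagcgtgcctcctgcgTTGCATCAtc
Slc7a11: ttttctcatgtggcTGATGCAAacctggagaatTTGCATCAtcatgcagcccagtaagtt
Slc3a2: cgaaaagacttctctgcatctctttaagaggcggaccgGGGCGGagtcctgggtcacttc
Slc38a2: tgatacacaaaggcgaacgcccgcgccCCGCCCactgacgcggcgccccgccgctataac

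The transporter mRNAs had medians from 2.31 FPKM for Slc7a7, whose median was above that of 15.8% of the genes tested, to 294.5 FPKM for Slc7a5, above 98.8%. All 10 genes reached 1 FPKM in each library, as did 20.1% of all genes in the table. Together they took 0.365%, 0.371%, 0.369% and 0.365% of the counts. None had a log2 range (highest minus lowest log2(FPKM + 1) over the 4 libraries) of 0.5 or more, which 17.3% of the 11874 genes had, and 9.31% of the 5229 genes averaging at least 10 FPKM; a range of 1 or more, which again none of them had, was found in 3.61% of the 11874. The median log2 range was 0.125 for the 10 genes and 0.275 for all genes tested, and 9 of the 10 lay under that overall median. For genes averaging at least 10 FPKM, as 9 of the 10 did, the median was 0.235. Counting error was small at these levels: the exact Poisson 95% intervals of the lowest and the highest library did not overlap for 7 of the 10 genes, against 56.9% of all genes tested. These intervals cover counting error only, and they treat every count as an independent molecule, which PCR copies are not.

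**Figure D1:**
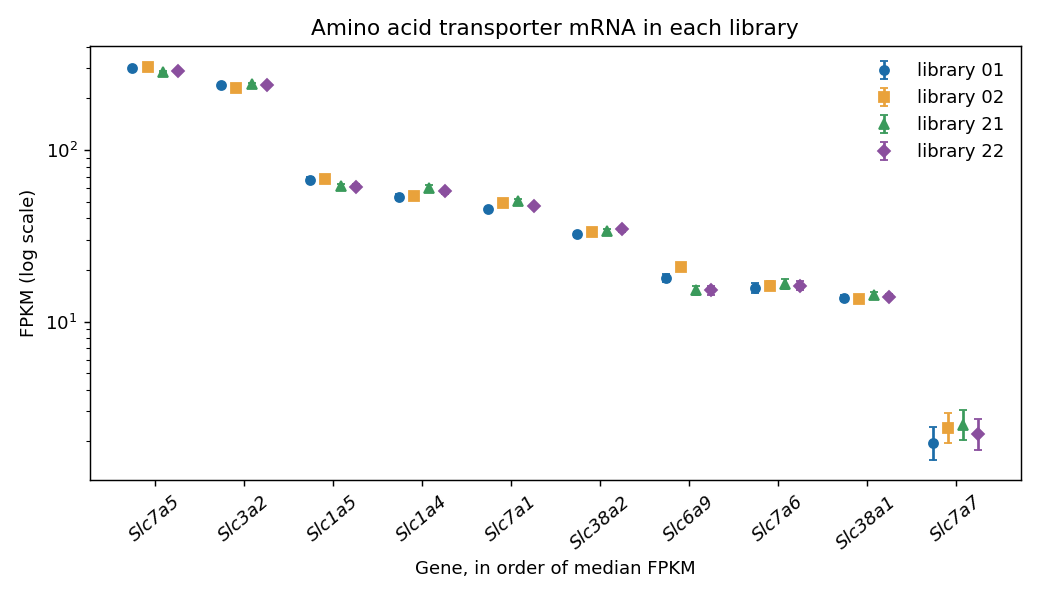
FPKM of the 10 transporter genes in each library on a log axis, with exact Poisson 95% intervals of the counts as error bars. Slc7a5 and Slc3a2 stand above 228 FPKM in every library, 8 genes lie below them, and Slc7a7 stands lowest at 1.96 to 2.51 FPKM.

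Coordinates below are those of the deposited table, for which no genome build is stated. Per length, the order of median levels was Slc7a5, Slc3a2, Slc1a5, Slc1a4, Slc7a1, Slc38a2, Slc6a9, Slc7a6, Slc38a1 and Slc7a7. Neighbours in this order did not overlap over the libraries, except Slc6a9 and Slc7a6, whose medians of 16.6 and 16.2 FPKM could not be ranked. The widest steps were from Slc38a1 to Slc7a7, 5.99-fold between medians, and from Slc3a2 to Slc1a5, 3.73-fold.

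The heavy and the main light chain led the group. Slc7a5 (ENSMUSG00000040010, chromosome 8, 122607889 to 122634433 on the minus strand as deposited) was at 299, 305, 285 and 290 FPKM, from 13687, 14745, 13099 and 13810 counts. Libraries 01 and 02 were above 21 and 22, by so little that the log2 range was 0.10, and 6.81% of the genes tested had a narrower one. Slc3a2 (ENSMUSG00000010095, chromosome 19, 8684246 to 8700733, minus strand) was at 238, 228, 241.5 and 240.1 FPKM from 10369, 10504, 10558 and 10890 counts. Library 02 was the low one, with a Poisson interval of 223.9 to 232.7 FPKM that lay below those of the other three, and the log2 range was 0.08.

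The ratio of the chains within a library does not depend on how libraries are scaled. Slc7a5 exceeded Slc3a2 per length 1.26, 1.34, 1.18 and 1.21 times, with exact binomial 95% intervals of 1.225 to 1.289, 1.303 to 1.37, 1.151 to 1.212 and 1.177 to 1.238. Library 02 had the highest ratio, with an interval apart from all others, while those of 21 and 22 overlapped. The 6 light chains that pair with CD98hc, Slc7a5, Slc7a6, Slc7a7, Slc7a8, Slc7a10 and Slc7a11, summed to 1.43, 1.53, 1.39 and 1.41 times the Slc3a2 level in FPKM. Slc7a10, the light chain Asc-1, had no count in any library.

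The light chains summed to 340.4, 348.45, 335.91 and 339.58 FPKM, and the minor chains Slc7a8 and Slc7a11 differed more between libraries than this sum. Slc7a5 made up 87.9%, 87.5%, 84.9% and 85.3% of the summed light chain FPKM. Slc7a8, the light chain LAT2 that overlaps LAT1 in substrates, was at 16.9, 17.8, 26.9 and 27.04 FPKM from 1044, 1162, 1668 and 1739 counts. Libraries 21 and 22 were the high ones, the log2 range of 0.65 was wider than in 90.2% of the genes tested, and the share of the pool was 4.96%, 5.11%, 8.01% and 7.96%. Slc7a11, the light chain xCT that brings in cystine, was at 6.68, 7.09, 4.84 and 4.29 FPKM from 1147, 1288, 834 and 768 counts. Here 01 and 02 were the high ones, with a log2 range of 0.61 and shares of 1.96%, 2.03%, 1.44% and 1.26%.

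**Figure D2:**
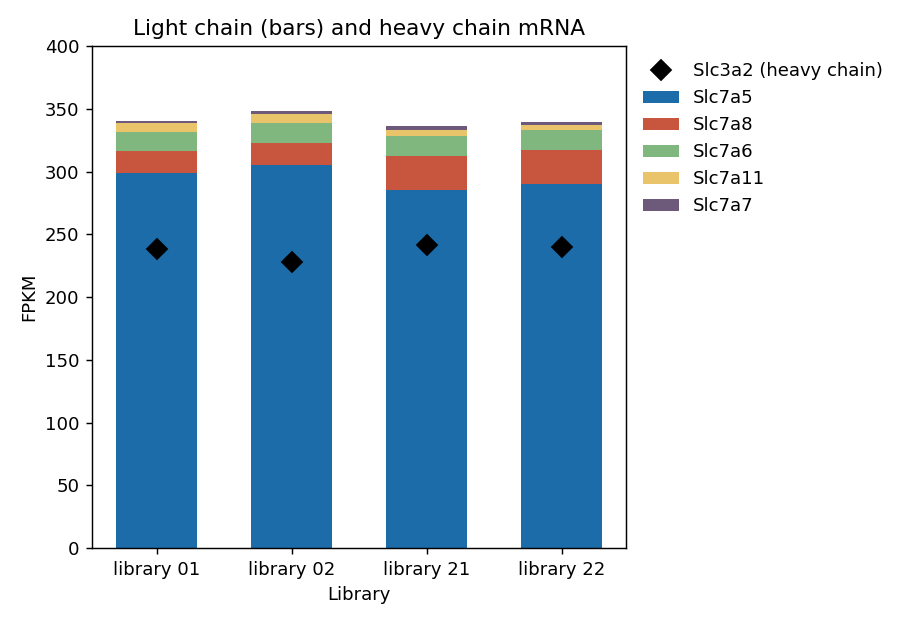
Stacked bars give the FPKM of the light chain genes in each library, and diamonds the FPKM of the heavy chain gene Slc3a2; Slc7a10 had no count and is not drawn. Slc7a5 fills 84.9% to 87.9% of each bar, and the Slc7a8 part is larger in libraries 21 and 22 than in 01 and 02.

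The cationic carriers stood far apart in level. Slc7a1 (ENSMUSG00000041313, chromosome 5, 148264220 to 148336714, minus strand) was at 44.98, 49.1, 50.5 and 47.4 FPKM from 6400, 7380, 7217 and 7015 counts. Library 01 was lowest and 21 highest, with 02 and 22 between them and a log2 range of 0.16. Slc7a6 (ENSMUSG00000031904, chromosome 8, 106895489 to 106925338, plus strand) was at 15.7, 16.2, 16.5 and 16.2 FPKM from 887, 965, 934 and 952 counts. All 4 Poisson intervals overlapped, and its log2 range of 0.06 was the narrowest of the 10 genes. Slc7a7 (ENSMUSG00000000958, chromosome 14, 54606899 to 54655237, minus strand) was at 1.96, 2.41, 2.51 and 2.21 FPKM. With 80, 104, 103 and 94 counts its intervals also overlapped, so no difference between libraries was detectable at this depth. Its deposited span shares 232 bases with Oxa1l on the opposite strand, which had 988 to 1169 counts, and nothing in the labels says that strands were told apart. Slc7a6 exceeded Slc7a7 per length 8.03, 6.72, 6.57 and 7.34 times. The other cationic carrier genes, Slc7a2 and Slc7a3, had at most 1 and 5 counts per library.

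The ASC exchangers lay close together and ordered the libraries in opposite ways. Slc1a5 (ENSMUSG00000001918, chromosome 7, 16515265 to 16532199, plus strand) was at 66.9, 67.9, 61.3 and 60.96 FPKM from 3443, 3697, 3167 and 3269 counts. Slc1a4 (ENSMUSG00000020142, chromosome 11, 20252180 to 20282713, minus strand) was at 53.05, 53.5, 60.04 and 57.3 FPKM from 2570, 2741, 2920 and 2892 counts. For Slc1a5 libraries 01 and 02 were the high ones and for Slc1a4 21 and 22 were. The ratio of Slc1a5 to Slc1a4 within a library was 1.26, 1.27, 1.02 and 1.06, with exact binomial 95% intervals of 1.197 to 1.327, 1.207 to 1.334, 0.97 to 1.073 and 1.011 to 1.118. The intervals of 01 and 02 overlapped each other, as did those of 21 and 22, and neither of the former overlapped either of the latter. The glutamate carriers of the same family, Slc1a1, Slc1a2, Slc1a3, Slc1a6 and Slc1a7, were all under 1 FPKM in every library, with Slc1a1 highest at 17, 10, 9 and 0 counts.

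The sodium-coupled SNAT genes were among the steadiest. Slc38a2 (ENSMUSG00000022462, chromosome 15, 96585273 to 96597611, minus strand) was at 32.3, 33.4, 33.7 and 34.5 FPKM from 3521, 3848, 3684 and 3918 counts. Slc38a1 (ENSMUSG00000023169, chromosome 15, 96469299 to 96540794, minus strand) was at 13.7, 13.6, 14.3 and 13.98 FPKM from 2913, 3050, 3045 and 3097 counts. For Slc38a2 only 01 and 22 had intervals apart, and for Slc38a1 no pair of libraries did. Their log2 ranges were 0.09 and 0.07. Slc38a2 exceeded its neighbour per length 2.36, 2.46, 2.36 and 2.47 times. The genes lie 44478 bases apart on the same strand, with 1 annotated gene between them that had 0 counts in all libraries.

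The glycine carrier varied most. Slc6a9 (ENSMUSG00000028542, chromosome 4, 117691703 to 117732395, plus strand) was at 17.9, 20.8, 15.2 and 15.2 FPKM from 1138, 1396, 966 and 1004 counts. Libraries 01 and 02 lay above 21 and 22, and 02 above 01, with intervals of 16.91 to 19.01 and 19.75 to 21.95 FPKM. Those of 21 and 22, 14.23 to 16.15 and 14.27 to 16.17 FPKM, overlapped. The log2 range was 0.43, a 1.37-fold span, wider than in 76.5% of the genes tested, and without library 02 it was 0.23. The deposited span of Slc6a9 overlaps B4galt2, with 85 to 136 counts, and Ccdc24, with 5 to 17, on the opposite strand. Of the 100-base stretches of its GENCODE M21 transcripts 77.5% were found in no other gene, against 96.3% to 100% for each of the other 9 genes, so part of its count is uncertain.

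**Figure D3:**
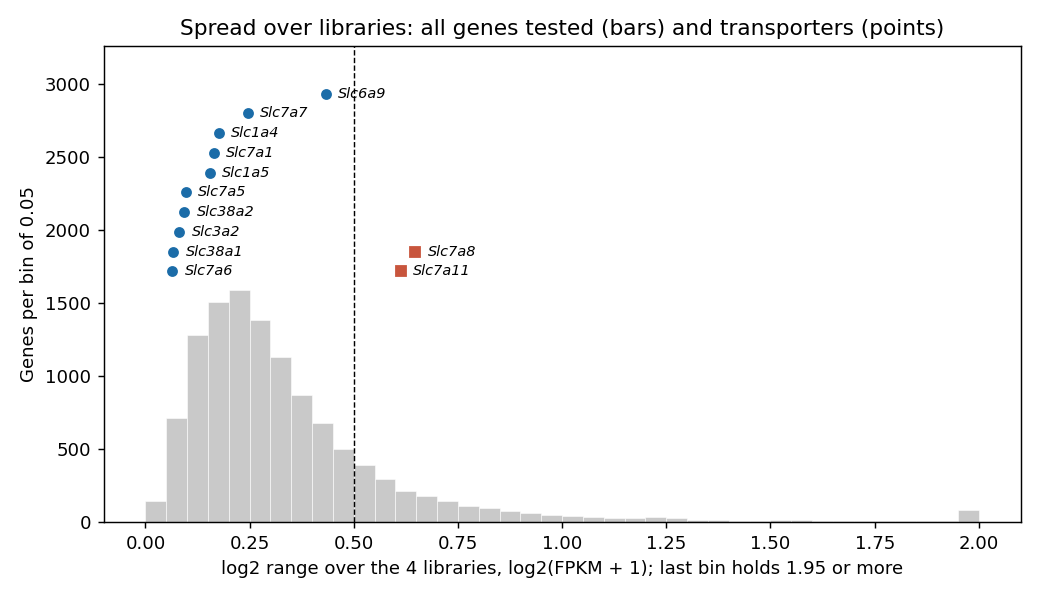
Bars give the number of genes per bin of log2 range over the 4 libraries for 11874 genes; circles mark the 10 transporter genes and squares Slc7a8 and Slc7a11, with height used only to separate names. Every circle lies left of the dashed line at 0.5, and both squares lie right of it.

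Of 44 further carrier genes in the SLC1, SLC3, SLC6, SLC7, SLC16, SLC36, SLC38 and SLC43 families, most of them amino acid carriers, 12 reached 1 FPKM in each library, 31 reached it in none and 11 had no count at all. The 10 genes held 87.8%, 87.5%, 87.04% and 87.4% of the FPKM summed over all 54. Among the 13 of the 44 averaging at least 1 FPKM, the median log2 range was 0.33, against 0.275 for all genes tested. A range of 0.5 or more was found in 2, Slc7a8 and Slc7a11, against 17.3% of all genes tested. Slc6a6, the taurine carrier, was at 24.7, 26.4, 19.9 and 19.6 FPKM, high in 01 and 02. Slc38a10 was at 22.02, 21.5, 21.2 and 21.5 FPKM and Slc38a7 at 15.7, 15.8, 18 and 16.9 FPKM. Slc38a9, the lysosomal arginine sensor, was at 1.74, 2.1, 1.93 and 1.85 FPKM. Slc43a2, the system L carrier LAT4, was at 5.36, 5.48, 6.93 and 5.7 FPKM, with 21 the high one.

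Genes that act on these carriers had a median spread near that of all genes tested, 0.287 against 0.275. Of 11 regulators 4 had a log2 range of 0.5 or more, against 17.3% of all genes tested. Atf4 was at 354, 315, 341 and 353 FPKM, for a log2 range of 0.17, with 02 low. Its targets Ddit3 and Trib3 were at 118, 107, 124 and 127 FPKM and at 257, 246, 176 and 174 FPKM, the latter high in 01 and 02. Myc was at 113, 119, 47.1 and 46.7 FPKM, for a log2 range of 1.33, while its partner Max was at 28.7, 28.7, 27.8 and 26.7 FPKM. Sgk1, a kinase known to act on transporters through the ubiquitin ligase NEDD4L, was at 13.8, 12.5, 3.98 and 5.63 FPKM, and Nedd4l at 5.36, 5.33, 5.01 and 5.38 FPKM. The remaining one of the 4 was the kinase gene Eif2ak3, at 5.34, 6.29, 10.1 and 10.1 FPKM, named after its values were seen.

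**Figure D4:**
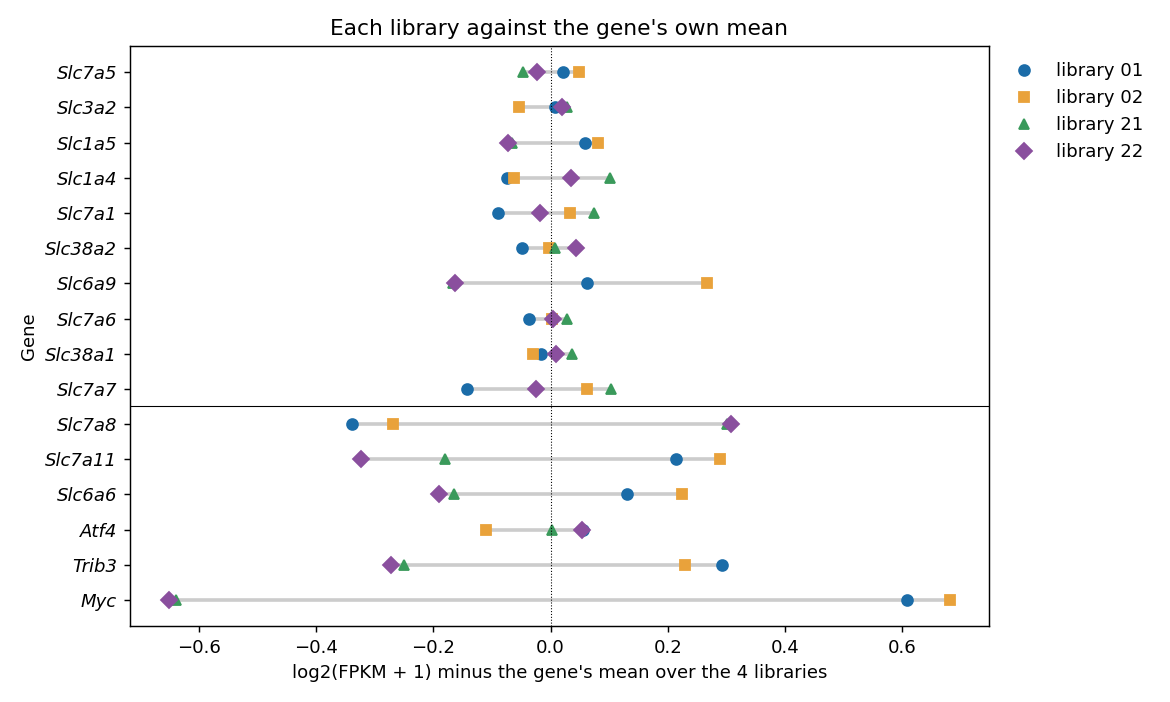
Each marker is a library's log2(FPKM + 1) minus the gene's mean over the 4 libraries; the 10 transporters are above the line, with Slc7a8, Slc7a11, Slc6a6, Atf4, Trib3 and Myc below it. The log2 ranges above the line are 0.06 to 0.43, and Myc spans 1.33.

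Of 32 genes through which amino acids signal to mTORC1, 31 reached 1 FPKM in each library. A log2 range of 0.5 or more was found in 3, against 17.3% of all genes tested, and the list median was 0.188, with a highest range of 0.85. Lamtor4, of the complex that anchors the Rag GTPases, was at 33.9, 27.9, 38.6 and 40.9 FPKM, and Tsc2, an inhibitor of the pathway, at 9.38, 10.7, 13.95 and 12.98 FPKM. Rragd, the remaining one, was at 1.97, 2.54, 0.97 and 1.28 FPKM and was named after its values were seen. The GTPase genes Rraga and Rragc were at 46.9, 43.8, 41.9 and 44.1 FPKM and at 40.2, 38.3, 37.3 and 38.8 FPKM. Sesn2, the leucine sensor that ATF4 induces, was at 27.8, 28.8, 30.2 and 30.3 FPKM. Of 5 genes of lysosomal carriers 1 had a range of 0.5 or more, the cysteine importer gene Mfsd12 at 23.8, 22.5, 15.2 and 14.4 FPKM, and the median range was 0.333.

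Enzymes that use the imported amino acids had no member with a range of 0.5 or more among the 14 of 18 averaging at least 1 FPKM. Over all genes tested 17.3% had such a range, and 9.31% of those averaging at least 10 FPKM. The median range was 0.247 for the enzymes and 0.275 for all genes tested. Asns, the asparagine synthetase and an ATF4 target, was at 170, 158, 146 and 145 FPKM. The glycine-forming enzyme genes Shmt2 and Shmt1 were at 148, 143, 159 and 157 FPKM and at 19.4, 18.5, 24.1 and 22.99 FPKM. Both had 21 and 22 above 01 and 02, as did 31.1% of all genes tested.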

How the data were processed

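Poly(A) RNA of 4 libraries was sequenced as paired-end reads, per the labels' protocols. The deposited counts are raw read counts per gene, judged by whole numbers whose totals differ between libraries. The authors' FPKM, so named in the file headers, is scaled to exonic size and summed count; count divided by size and FPKM returned that sum within 0.05% above 10 FPKM. The submitters' processing notes name HISAT2, FastQC and DESeq2, without version or role; for counter, build and annotation, the sources used here give nothing. No library has a group in the labels, so no test between groups was run. The 10 genes, the lists and the genes named from them (up to 4 with the highest median and, among genes averaging at least 5 FPKM, 2 with the widest range per list, besides Slc7a8, Slc7a11, Atf4, Myc, Sesn2 and the cell markers) were chosen with earlier results of these data known. A gene that this rule takes is not reported here. Ranges used log2(FPKM + 1) over genes averaging at least 1 FPKM. Intervals of counts are exact Poisson and those of ratios exact binomial (Clopper-Pearson), at 95%. Of symbols with several rows the higher median was used. The calculations were tested on simulated counts. Python 3.11.15 with scipy 1.17.1, and edgeR 4.0.16 for TMM factors, were used. Promoter windows are RefSeq's on GRCm38.p6; deposited coordinates were not converted.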

Additional observations from a re-analysis of the deposited data

How the results depend on the processing

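No paired analysis was possible because the labels put no library in a group. Rescaling to equal FPKM sums, median-of-ratios factors and TMM factors changed the 40 member values by at most 1.24%, 0.629% and 0.704%, within every Poisson interval. No gene of the 10 had a log2 range of 0.5 or more under those scalings or with a pseudocount of 0.1 or 5. Leaving out 1 library cannot widen a range, so it could not add such a gene. Under all these settings, those without any 1 library included, the median range was 0.0942 to 0.145. Of 90 recomputed single ranges 3 moved by more than counting error: Slc6a9 to 0.23 without library 02, Slc3a2 to 0.02 without 02 and Slc7a1 to 0.09 without 01. The count with intervals apart was 6 at 99%, where wider intervals cannot raise it, and 6 to 7 without 1 library. All 10 genes passed 0.5 FPKM in every library and 9 passed 5. The percent of all genes with a range of 0.5 or more was 11% at a mean of 5 FPKM or more and 7.66% with no filter, since low genes enter or leave. From counts in place of FPKM the Slc7a5 to Slc3a2 ratio was 1.32, 1.40, 1.24 and 1.27, because the gene lengths differ. With 80 to 104 counts, Slc7a7 limits what can be seen of its differences.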

Other observations

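Over the 4 libraries, which the labels place in no group, 5 of the 10 genes (Slc3a2, Slc7a6, Slc1a4, Slc38a1 and Slc38a2) had both 21 and 22 above both 01 and 02. In 3 (Slc7a5, Slc1a5 and Slc6a9) both 21 and 22 were below both others, and in 2 (Slc7a1 and Slc7a7) the values interleaved. The same orders held for 31.1% and 30.9% of the 11874 genes tested. Such an order can rest on differences within counting error. For Slc7a6 and Slc38a1 no pair of libraries had Poisson intervals apart, and for Slc38a2 only 01 and 22 did. The median absolute log2 difference of the 10 genes was 0.043 between 01 and 02, 0.0254 between 21 and 22 and 0.073 to 0.0965 in the other 4 pairs, against 0.0923, 0.0819 and 0.165 to 0.172 for all genes tested.

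The deposited annotation itself needs care for this family. A gene ontology process naming amino acid transport is attached to 55 genes, 8 of the 10 among them; Slc3a2 and Slc1a4 are not. It is attached to Myc and to Lat2, which the table describes as linker for activation of T cells family member 2, an adaptor of immune receptors. Lat2 shares its name with the protein LAT2 that Slc7a8 encodes. Lat2 was at 65.9, 61.1, 42.8 and 44.8 FPKM, opposite in order to Slc7a8. A list drawn from that term would sum to 785, 806, 685 and 685 FPKM, while the 10 genes summed to 784, 790, 781 and 778 FPKM. Slc17a5, a lysosomal carrier with the same term, was at 6.86, 6.77, 4.3 and 4.83 FPKM.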
